A study of Drosophila melanogaster with 3 samples.

Results

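The genes described here encode the vacuolar proton pump, the V-ATPase, of Drosophila melanogaster. Members were the protein-coding genes of the Ensembl annotation of assembly BDGP6 whose symbol begins with Vha, which gave 33 of 13945 protein-coding genes on the chromosome arms. All 33 have a subunit role: 13 belong to the V1 sector, 18 to the V0 sector and 2 are accessory proteins. They hold 45 annotated transcription start sites, and 25 of them have 1 start site.

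The V-ATPase is a rotary pump that spends ATP to move protons across membranes. Its peripheral V1 sector hydrolyses ATP and turns a central rotor, and its membrane-embedded V0 sector carries the protons through. The pump acidifies endosomes, lysosomes and secretory vesicles in every cell, and in insects it also energises the plasma membrane of transporting epithelia such as the Malpighian tubules. Flies carry several paralogs for many of the subunits, some of which are used in few tissues, such as the testis. In flies and mammals, transcription factors of the Mitf family bind E-box elements near V-ATPase genes.

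The data were chromatin immunoprecipitation followed by sequencing (ChIP-seq) of whole prepupae, with both sexes pooled and age unknown. The animals came from 1 transgenic line, CG8319-GFP, which stably expresses the CG8319 protein with GFP at its C terminus, and the fusion protein was pulled down with an antibody against GFP. The 3 samples form 1 group, numbered in the labels as biological replicates 1, 2 and 3. An untagged group was not analysed here, so samples were not compared by group, and signals are averages over all tissues of the animal.

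Each replicate has a list of 30000 regions that holds peaks together with background, and a pooled list of 30000 regions was called on all 3 replicates together. An optimal list of 4410 peaks was derived by the irreproducible discovery rate (IDR), a measure of how well peak ranks repeat. The 4410 optimal peaks were exactly the strongest 4410 regions of the pooled list. A given optimal peak therefore need not be listed in every replicate. A list's signal is the authors' own peak score, on a scale that differs between lists, so ranks are given beside it and rank 1 is the strongest. Depth per sample is unknown. A gene was called bound when the summit of an optimal peak lay at most 500 bp from one of its start sites, and a region was called a top region when it ranked among the 4410 strongest of a replicate's list.

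CG8319-GFP had an optimal peak at 3 of the 33 V-ATPase genes, or 9.09%, beside 14.0% of all protein-coding genes (1953 of 13945). The bound genes were Vha100-2, which encodes an a subunit of V0, the subunit that forms the proton path, Vha36-1, which encodes a D subunit of the central rotor of V1, and Vha13, which encodes the G subunit of the stalk that holds V1 still. By sector, 2 of 13 V1 genes, 1 of 18 V0 genes and neither accessory gene were bound. The 3 peaks were very unequal. At Vha100-2 the pooled signal was 505 (rank 158), at Vha36-1 it was 154 (rank 1995) and at Vha13 it was 87.6 (rank 4389), near the end of the optimal list. Only the Vha13 peak lay nearer to a start site of the V-ATPase gene than to that of another gene.

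Vha100-2 (FBgn0028670) had the strongest region and the only one that ranked among the top regions of all 3 replicates. The signal was 124 (rank 146) in replicate 1, 245 (rank 163) in replicate 2 and 136 (rank 201) in replicate 3. All 3 replicates thus placed it within their 201 strongest regions. The replicate summits lay 308, 304 and 307 bp upstream of the start site at position 18396928 of chromosome 3R, and the pooled summit lay 301 bp upstream. The peak, at chr3R:18397098-18397353 in dm6, fell in an intron of the longer Vha100-2 transcript and in a 5′ UTR exon of Vti1b. Vti1b encodes a SNARE protein of endosomal membrane fusion, runs on the opposite strand and starts 234 bp from the summit. The peak therefore counted for both genes, and its target cannot be told apart from position. The bases around the summit, chr3R:18397215-18397243, are shown because they carry the strongest signal at any V-ATPase gene. They are from the RefSeq genome of the Release 6 assembly and are read on the minus strand, the strand of Vha100-2, with the reverse complement of GAGAG in capitals.
Vha100-2: tattgCTCTCacagctattgttcttattg

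A weaker optimal peak overlapped the strong one, with its summit 504 bp upstream of the same Vha100-2 start site, just outside the 500 bp limit, and with a pooled signal of 93.4 (rank 4027). Another optimal peak lay 3283 bp downstream in an intron of Vha100-2, with a signal of 98.9 (rank 3744). At the other Vha100-2 start site, position 18399169, no optimal peak was present, and the strongest pooled region had a signal of 53.2 (rank 8092). The optimal peaks that stood next to the strong one in rank, 5 above and 5 below, had signals of 498 to 511. Their nearest genes were ITP, trx, MFS10, CG13631 and fok above it, and prage, lncRNA:CR44026, CG8034, bves and CG32022 below it.

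Vha13 (FBgn0283536) had the weakest of the 3 peaks, and replicates placed it less evenly. The signal was 33.0 (rank 2667) in replicate 1, 42.2 (rank 4619) in replicate 2 and 18.5 (rank 6552) in replicate 3. It was a top region in replicate 1 only. These strongest summits lay 56 bp downstream of the start site in replicate 1, and 76 and 152 bp upstream in replicates 2 and 3. Replicate 3 held another region within 500 bp, 371 bp upstream, with a signal of 16.1 (rank 7960). The pooled peak, at chr3R:19644247-19644656 in dm6, had its summit 66 bp upstream of the Vha13 start site, outside any exon, and no other gene started within 500 bp. The 101 bases centred on that summit, chr3R:19644402-19644502, are shown because this was the only optimal peak nearest to a V-ATPase gene within the 500 bp limit. They are read on the minus strand, the strand of Vha13, with the summit base in capitals.
Vha13: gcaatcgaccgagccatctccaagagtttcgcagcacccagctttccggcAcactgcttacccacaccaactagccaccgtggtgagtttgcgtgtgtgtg

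In these 101 bases A and T made up 42.6%, lower than all but 1.69% of the 1712 promoter peaks (optimal peaks with a summit within 500 bp of a start site), whose median was 67.3%. The same window held 63.4% A or T at Vha100-2 and 58.4% at Vha36-1. The 3 windows thus all lay below the promoter median. In pooled signal, 94.2% of promoter peaks were weaker than that of Vha100-2, 48.9% were weaker than that of Vha36-1, and 0.467% were weaker than that of Vha13. The median signal was 154 over the 3 peaks and 157 over all promoter peaks.

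Vha36-1 (FBgn0022097) stood between them. The signal was 50.8 (rank 1262) in replicate 1 and 63.5 (rank 2581) in replicate 2, while replicate 3 listed no region within 500 bp of its start site. The pooled peak, at chr2R:15541148-15541557 in dm6, had its summit 82 bp upstream of the Vha36-1 start site and 10 bp from that of CG8187, a divergent neighbour on the opposite strand whose 5′ UTR holds the summit. An antisense RNA gene, asRNA:CR45927, also started within 500 bp, at 466 bp. The paralogs Vha36-2 and Vha36-3 had no optimal peak. Vha36-2 was listed only in replicate 3, with a signal of 8.42 (rank 25098), and Vha36-3 only in replicate 2, with 15.7 (rank 20389), and in the pooled list, with 24.9 (rank 22636).

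**Figure D1:**
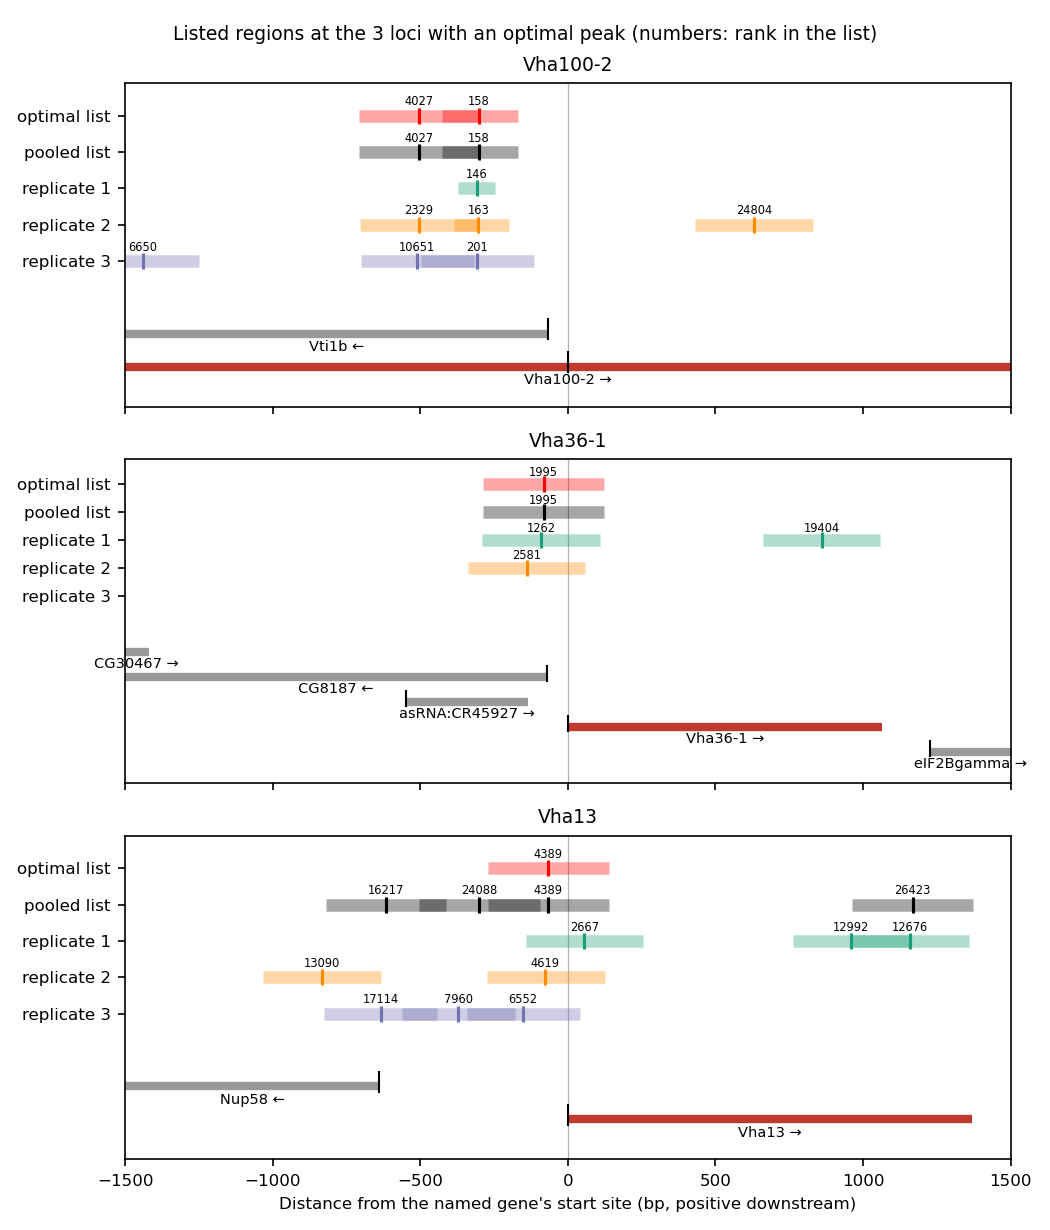
Listed regions (bars) and summits (ticks, with the rank in the list) in the optimal, pooled and replicate lists, against distance from the start site in bp, for Vha100-2, Vha36-1 and Vha13; genes are drawn below with their direction and start sites. The Vha100-2 peak ranked 146 to 201 in the replicates and sat within Vti1b, the Vha36-1 peak had no region in replicate 3, and the strongest Vha13 summit of each replicate lay between 152 bp upstream and 56 bp downstream, with weaker regions farther out.

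Of the other V-ATPase genes, 3 had a pooled region just below the end of the optimal list, whose lowest signal was 87.3. These were Vha16-1, encoding a c subunit of the membrane ring, with a pooled signal of 79.0 (rank 4985), Vha68-2, encoding the catalytic A subunit, with 78.7 (rank 5008), and VhaSFD, encoding subunit H, which regulates the joining of V1 and V0, with 75.5 (rank 5266). These signals were 90.5%, 90.2% and 86.5% of the lowest optimal signal, while that of Vha13, just inside the list, was 100.3%. The Vha16-1 region lay at the start site at position 6633090, where the strongest replicate signals were 8.46 (rank 20330), 33.2 (rank 6421) and 33.4 (rank 3008) in replicates 1, 2 and 3, a top region in replicate 3 only. At its other start site, position 6632384, the pooled signal was 55.2 (rank 7758), replicate 1 had 20.1 (rank 5761), replicate 2 had 36.9 (rank 5563) and replicate 3 listed no region within 500 bp. For Vha68-2 the replicate signals were 27.6 (rank 3555), 31.2 (rank 6982) and 11.1 (rank 15015), a top region in replicate 1 only. VhaSFD was the most even of the 3, with 20.6 (rank 5515), 31.0 (rank 7069) and 17.0 (rank 7356) and no top region, and its pooled summit lay 10 bp from the start site.

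Among the V1 subunits, A is carried by 3 genes and none was bound. Vha68-1 was listed in replicate 3 alone, with a signal of 56.6 (rank 1352), a top region there, while neither the other replicates nor the pooled list held a region within 500 bp of its start site. Vha68-3 was in no list. The B subunit, the other nucleotide-binding subunit, is encoded by Vha55, which was listed in every replicate at low rank, with signals of 8.93 (rank 18884), 16.1 (rank 19426) and 12.7 (rank 11661), and in no pooled region. Vha44, encoding subunit C, was listed in replicate 1 alone (rank 10542). Vha26, encoding subunit E of the stalk, was listed in replicate 1 (rank 16312) and replicate 2 (rank 11252). For subunit F of the rotor, Vha14-1 was in no list and Vha14-2 had regions at rank 24646 in replicate 1 and rank 24636 in replicate 3. Subunits B, C, E, G and H are each encoded by 1 gene. Of these 5 genes, 1 was bound (Vha13), beside 14.0% of all protein-coding genes. Listed in all 3 replicates were 3 of them (Vha13, Vha55 and VhaSFD), beside 24.7% of all protein-coding genes. Counts over 5 genes are too small to set the class apart from all genes.

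Among the V0 subunits, the a subunit is carried by 5 genes, of which Vha100-2 alone was bound. Vha100-1 was listed in all 3 replicates at low rank, 28333, 20251 and 23979 of 30000. Vha100-4 and Vha100-5 were listed in replicate 1 alone, at ranks 16403 and 25511, and Vha100-3 was in no list. Of the 5 genes for the c subunit, Vha16-5 was, like Vha16-1, listed in every replicate, with signals of 20.0 (rank 5806), 46.1 (rank 4062) and 23.8 (rank 4722) in replicates 1, 2 and 3. The 3 summits lay 300, 322 and 277 bp upstream of its start site, yet no pooled region had its summit within 500 bp. Vha16-2 was listed in replicate 1 (rank 17877), Vha16-3 in replicate 2 (rank 24970) and the pooled list (rank 22829) and Vha16-4 in no list.

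The remaining V0 subunits had no optimal peak. For c″, a second kind of ring subunit, VhaPPA1-1 was listed in replicate 1 at rank 27811 and VhaPPA1-2 in no list. For d, which joins the rotor to the ring, VhaAC39-1 was listed in replicate 3 (rank 15497) and VhaAC39-2 in replicate 1 (rank 8948) and the pooled list (rank 20253). For the small subunit e, VhaM9.7-a was listed in all 3 replicates, with signals of 11.2 (rank 13587), 23.6 (rank 10513) and 23.5 (rank 4807), and in the pooled list with 59.2 (rank 7108). VhaM9.7-c was listed in replicates 1 and 3 at ranks 5233 and 10483 and in the pooled list at rank 12937, VhaM9.7-b in replicate 1 at rank 7523, and VhaM9.7-d in no list. Of the accessory genes, VhaAC45 was in no list and VhaAC45RP was listed in replicate 3 at rank 28411.

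**Figure D2:**
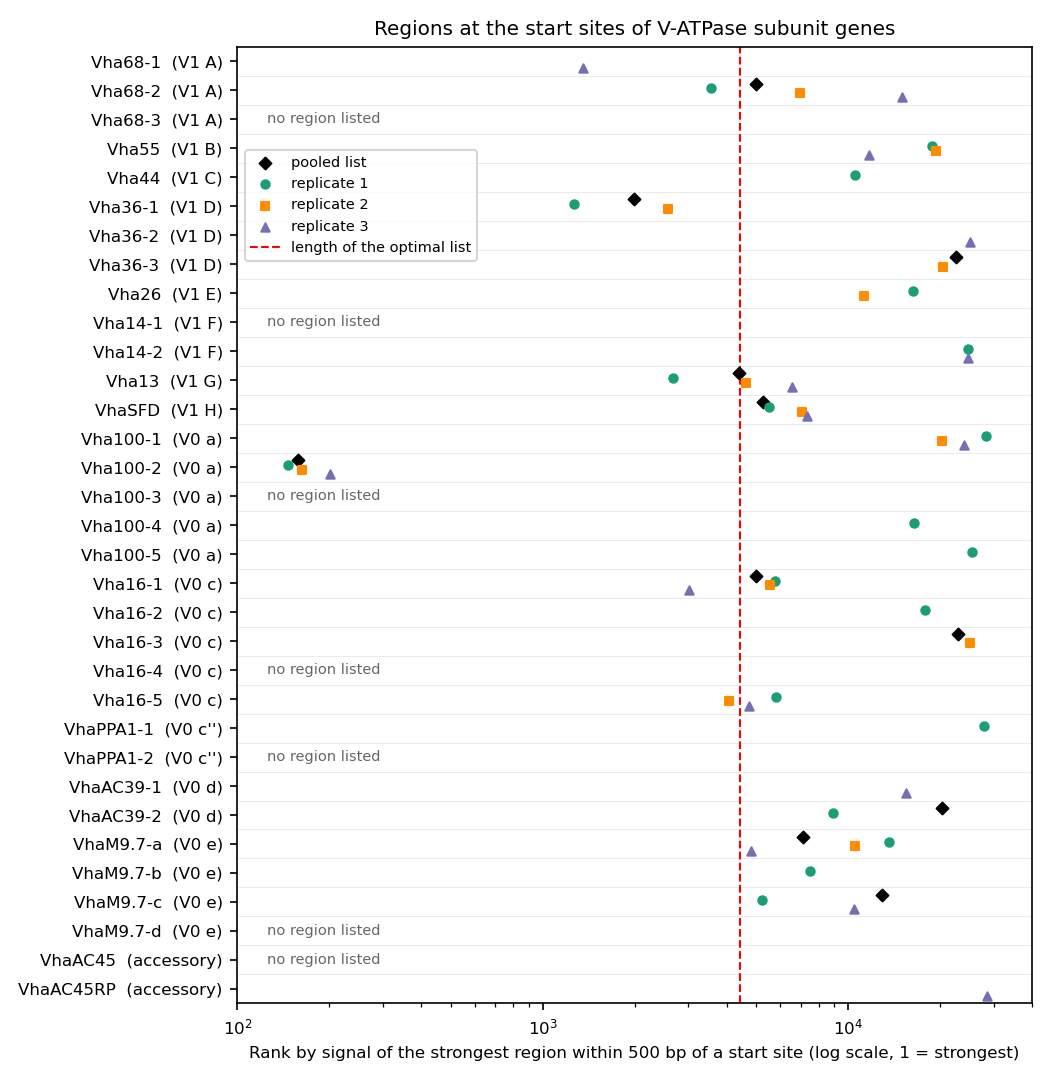
Rank by signal (log scale, 1 is the strongest) of the strongest region within 500 bp of a start site of each of the 33 V-ATPase genes, in the pooled list and in replicates 1, 2 and 3; the dashed line marks rank 4410, the length of the optimal list. Vha100-2 stands far left in all lists, most other regions lie right of the line, and 7 genes have no region in any list.

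The number of V-ATPase genes with a top region was 4 in replicate 1, 3 in replicate 2 and 3 in replicate 3, a mean of 3.33 ± 0.577 (SD, n = 3). As shares these were 12.1%, 9.09% and 9.09%, beside 15.1%, 14.4% and 14.2% of all protein-coding genes, and the means were 10.1% ± 1.75 and 14.6% ± 0.491 (SD, n = 3 each). Altogether 7 V-ATPase genes had a top region in at least 1 replicate, and 26 (78.8%) had none, beside 80.2% of all protein-coding genes. Vha100-2 was the only V-ATPase gene with a top region in all 3 (3.03%, beside 9.81% of all protein-coding genes). Vha36-1 had one in 2 replicates (3.03%, beside 4.20% of all protein-coding genes). In 1 replicate only, 5 genes had one (15.2%, beside 5.82%): Vha13, Vha68-1, Vha68-2, Vha16-1 and Vha16-5.

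At any rank, background included, 20 V-ATPase genes were listed in replicate 1, 13 in replicate 2 and 15 in replicate 3, or 60.6%, 39.4% and 45.5%. The shares of all protein-coding genes were 47.2%, 42.2% and 37.0%. In the pooled list they were 33.3% of V-ATPase genes (11) and 38.8% of all protein-coding genes. In all 3 replicates 9 V-ATPase genes were listed (27.3%), beside 24.7% of all protein-coding genes, and 7 (21.2%) were listed in none, beside 38.5%. The V-ATPase genes were listed in 1 replicate only in 13 cases (39.4%), beside 21.3% of all protein-coding genes. Among genes with a region, the median best rank was 9745, 7069 and 10483 for V-ATPase genes in replicates 1, 2 and 3, beside 7921, 7604.5 and 6680 for all protein-coding genes. In the pooled list it was 5266 for V-ATPase genes and 7123.5 for all protein-coding genes. V-ATPase regions thus ranked lower at the median in replicates 1 and 3 and higher in replicate 2 and in the pooled list. Of the 9 genes listed in every replicate, 3 (33.3%), namely Vha16-5, Vha55 and Vha100-1, had no pooled region. That was so for 149 of the 3439 protein-coding genes listed in every replicate (4.33%), and for 51 of the 1666 genes (3.06%) whose best regions all ranked at 5806, the lowest rank of Vha16-5, or better. Vha55 and Vha100-1 ranked past 5806 in every replicate. The last share therefore stands beside Vha16-5 alone, the gene that set the limit.

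The optimal summit nearest to a start site was at a median of 10051 bp for the V-ATPase genes (quartiles 3840 and 22808 bp) and 9612 bp for all protein-coding genes (2663 and 23707 bp). Within 2000 bp lay 5 of the 33 genes (15.2%), beside 21.8% of all protein-coding genes. The 2 of these that were not bound were Vha14-1, with a peak 885 bp downstream of its start site of signal 414 (rank 288) that lay 243 bp from the start of Gmppa, and VhaPPA1-2, with a peak 1784 bp downstream of signal 140 (rank 2306) that lay 121 bp from the start of Nup93-2. Over 50000 bp from any optimal summit were 6 genes (18.2%), beside 10.3% of all protein-coding genes: the 3 A subunit genes, Vha36-2, Vha16-4 and Vha100-5. The A subunit genes lie near each other on chromosome 2L and share the same nearest peak, so they are not independent in this count. Near Vha16-1 an optimal peak lay in an intron, 3875 bp downstream of a start site, with a signal of 104 (rank 3491).

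**Figure D3:**
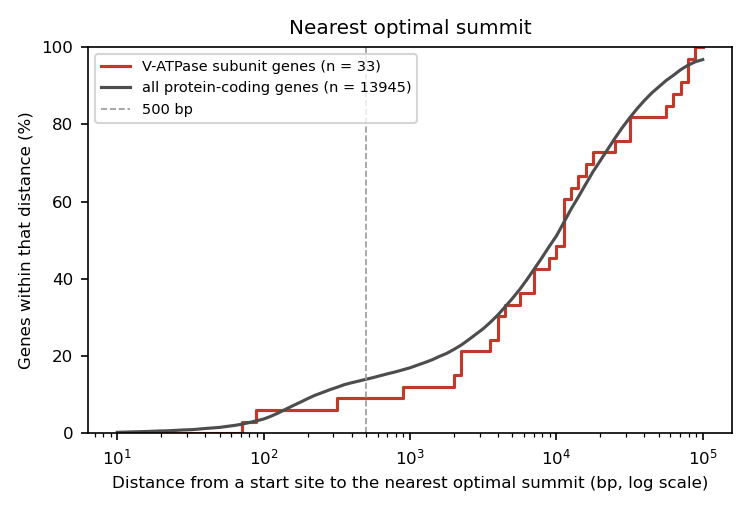
Percent of the 33 V-ATPase genes (red) and of the 13945 protein-coding genes (dark grey) whose nearest optimal summit lies within the distance on the log axis in bp. The red curve is at 9.09% and the grey one at 14.0% at 500 bp, and their medians are 10051 and 9612 bp.

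The number of start sites moves with the bound share: among all protein-coding genes 9.96% of those with 1 start site were bound, 21.2% of those with 2 and 34.2% of those with 3 or more. Among V-ATPase genes these were 2 of 25, 1 of 6 and 0 of 2. The part of start-site number in the V-ATPase share was not tested.

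Motifs were searched on both strands in the 300 bases that run from 250 before to 50 after each start site, in the RefSeq genome of the Release 6 assembly. The E-box CACGTG was present at 5 of 33 V-ATPase genes (15.2%) and at 5.30% of all protein-coding genes. The longer form TCACGTGA, which contains CACGTG, was present at Vha68-2 and Vha44 (6.06%) and at 0.201% of all protein-coding genes. CATGTG, the M-box core, was present at 9 V-ATPase genes (27.3%) and at 13.2% of all protein-coding genes. A gene counted when any of its start sites had the motif, so genes with more start sites had more bases searched. None of the 5 genes with CACGTG was bound, and of all 739 protein-coding genes with it 20.3% were bound. The 30 bases around the E-box are shown for 4 of these genes because E-boxes are the known element of V-ATPase genes and these carried no optimal peak. The bases of Vha44, which also had no optimal peak, are not shown here; its CACGTG began at −47 from a start site. The VhaM9.7-d E-box began at +23, past the start site and the 5′ UTR and in the coding sequence, while those of the other 4 genes lay upstream of a start site. All 30 bases shown for Vha55 lay in an annotated UTR, downstream of another Vha55 start site at position 12627829. The Vha68-2 E-box likewise lay downstream of other start sites of its gene. They lie at chr2L:12975292-12975321 on the plus strand for Vha68-2, chr3R:12627756-12627785 on the minus strand for Vha55, chr3R:16975215-16975244 on the plus strand for VhaM9.7-d and chr3R:30166575-30166604 on the minus strand for VhaAC45RP. Capitals mark CACGTG, its longer form in Vha68-2, and CATGTG in Vha55, and each is read on the strand of its gene.
Vha68-2: tcaaagctctgTCACGTGAaacgaaagctc
Vha55: gtCATGTGacggCACGTGacgtcacagcag
VhaM9.7-d: gaaatggataagCACGTGgcattcatggtc
VhaAC45RP: ccgttacagaaaCACGTGgcactcgaattg

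The other motifs searched were found at V-ATPase genes as follows. TATCGATA, the DNA replication-related element (DRE), was present at Vha55 and VhaSFD (6.06%) and at 10.2% of all protein-coding genes. CGATA, which lies within TATCGATA, was present at 19 V-ATPase genes (57.6%) and at 53.0% of all protein-coding genes. GTCACAC, from the core promoter element called motif 1, was present at 7 (21.2%) and at 11.1% of all protein-coding genes. GAGAG was present at 11 (33.3%) and at 36.3% of all protein-coding genes, AAAAAA at 20 (60.6%) and at 56.3%, and TCAGT, an initiator form, at 17 (51.5%) and at 58.5%. In the 101 bases at the 3 bound summits, the Vha100-2 window held GAGAG and TCAGT, the Vha36-1 window held CGATA, and the Vha13 window held none of the 9 motifs searched. The GTCACAC of Vha13 began at −20 from its start site and crossed the edge of that window, which ended at −16. Of all promoter peaks, 8.88% held GAGAG, 16.6% held TCAGT and 16.2% held CGATA in that window.

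Genes listed for pump assembly and regulation, nutrient sensing, ion and cholesterol transport, and membrane fusion gave a like count. Of 33 such genes listed by name, 31 were matched, and 4 were bound (12.9%, beside 14.0% of all protein-coding genes). By class these were 1 of 5 assembly and regulation genes, 2 of 10 nutrient-sensing genes, 1 of 8 ion and cholesterol transport genes and 0 of 8 genes of the HOPS tethering complex and fusion. Lamtor3, of the Ragulator complex that anchors Rag GTPases to lysosomes, had a pooled signal of 651 (rank 87), stronger than that of any V-ATPase gene. Its replicate signals were 147 (rank 84), 294 (rank 112) and 202 (rank 76), and fws starts within 500 bp of the same summit. At mtd, a fly member of the TLDc protein family that binds the V-ATPase in mammals, the signal was 246 (rank 885). ClC-a, a chloride channel, had 97.5 (rank 3807) and RagA-B, a Rag GTPase, had 95.0 (rank 3944), with CG11970 nearer to the RagA-B summit. Replicates 1, 2 and 3 ranked mtd at 1557, 1157 and 509, and ClC-a at 7549, 3783 and 3769. RagA-B ranked 4313 in replicate 2 and 2641 in replicate 3, and replicate 1 had no region there. Mitf was not bound.

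Beside other multi-subunit or membrane-traffic groups, the V-ATPase share of 9.09% lay near that of the mitochondrial ATP synthase genes, 6.67% (1 of 15), and of the Rab GTPase genes, 10.7% (3 of 28). Cytoplasmic ribosomal protein genes were bound at 57.6% (53 of 92). A listed region in all 3 replicates was present at 27.3% of V-ATPase genes, 33.3% of ATP synthase genes, 35.7% of Rab genes and 70.7% of ribosomal protein genes. In the pooled list the Rab genes stood apart from the V-ATPase genes. A pooled region was present at 33.3% of V-ATPase, 26.7% of ATP synthase, 64.3% of Rab and 79.3% of ribosomal protein genes, beside 38.8% of all protein-coding genes. These differences were not tested.

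**Figure D4:**
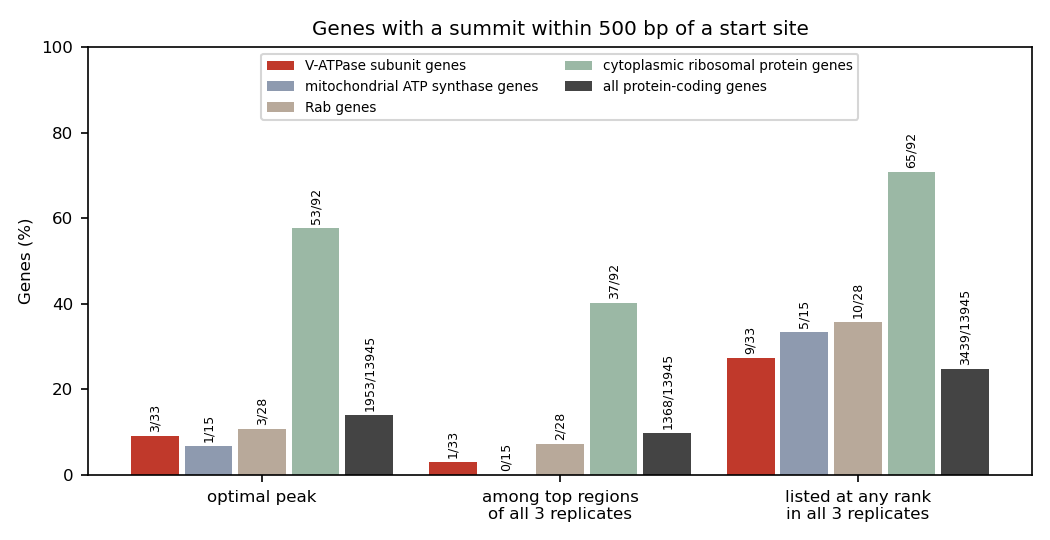
Percent of V-ATPase, mitochondrial ATP synthase, Rab, cytoplasmic ribosomal protein and all protein-coding genes with a summit within 500 bp of a start site in the optimal list, among the top regions of all 3 replicates, and at any rank in all 3 replicates; numbers above bars are genes called over genes in the group. V-ATPase genes stand at 9.09%, 3.03% and 27.3%, all protein-coding genes at 14.0%, 9.81% and 24.7%.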

How the data were processed

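Anti-GFP ChIP-seq regions of 3 biological replicates of CG8319-GFP prepupae were read from 5 deposited dm6 lists. Per the deposited text notes, the authors called regions in each replicate and in the replicates together, each with a control, and derived the optimal list by IDR. Column 7 of each list holds the signal of the authors' peak caller. The sources used here do not give aligner, caller or thresholds. The dm3 lists were not used here.

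Start sites came from Ensembl BDGP6 (release 115) transcripts of genes on 6 chromosome arms, with transposable elements left out. Shares of bound or listed genes were taken over protein-coding genes. Promoter peaks and nearest genes used the start sites of all these genes, noncoding ones included. RefSeq start sites of the same assembly were an alternative. Summits were column 2 plus column 10 plus 1. Distance counting was checked on simulated peaks. Overlap meant 1 bp or more. Bases were read from the RefSeq genome of the same assembly. Python 3.11.15, pandas 2.3.3, numpy 2.4.6 and matplotlib 3.10.9 were used.

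The V-ATPase genes, the other gene lists and the motifs were chosen with earlier results of these data known, so no test was run over them. Every V-ATPase gene was accounted for, and those with an optimal peak were described in full. Depth is unknown, so no interval is given. The control's own signal was not analysed here.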

Additional observations from a re-analysis of the deposited data

How the results depend on the processing

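The count of 3 bound V-ATPase genes (14.0% of all genes) became 1, Vha100-2, when optimal peaks had to overlap a top region of all 3 replicates (9.63% of all genes), and 1, Vha13, when a peak counted only for the gene with the nearest start site (10.2%). It was 2 (6.06%, beside 9.00% of all genes) within 200 bp, 4 (12.1%, beside 17.0%) within 1000 bp, which added Vha14-1, and 2 (6.06%, beside 8.28%) with the 2205 strongest optimal peaks. It was 3 (9.09%) by any part of a peak, beside 15.3% of all genes, and 3 (9.09%) with RefSeq start sites, beside 14.0%. The mean number of V-ATPase genes with a top region, 3.33, was 1.67 with 2205 top regions per replicate, and 3 to 3.5 when a replicate was left out. A shorter list lowers such counts for genes in general. The share of all genes with 2205 top regions is not given here, so the lower count has no background beside it. The number listed in all 3 replicates, 9 (27.3%, beside 24.7% of all genes), was 7 within 200 bp (21.2%, beside 13.3%). Within 1000 bp it was 11 (33.3%, beside 31.9%). The median distance of summits from V-ATPase start sites, 82 bp, was 301 bp within 1000 bp, and the mean A or T content, 54.8%, was 59.5% with 100 bp on either side of the summit. With that wider window 1 bound peak, that of Vha13 with its motif 1 element, held an E-box, M-box, DRE or motif 1 element, against 0 in the 101 bases. Such elements were rare in the 101 bases of all promoter peaks. CACGTG was present in 0.935% of them, CATGTG in 3.80%, TATCGATA in 2.10% and GTCACAC in 1.75%. Shares for the wider window are not given here, so neither count sets these 3 peaks apart. No paired analysis was possible because the samples form 1 group. With 3 peaks at V-ATPase genes, medians over them rest on single peaks. Ranks past 4410 include background and are not calls.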
